A study of Mus musculus with 13 samples.

Results

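The genes described here are 10 genes of the pluripotency network that are known to be active in mouse embryonic stem cells (mESCs), namely Pou5f1, Nanog, Sox2, Klf4, Esrrb, Tfcp2l1, Zfp42, Prdm14, Dppa4 and Utf1. They were taken by name from a list of 10 among the 22367 protein-coding genes of the GENCODE vM1 annotation of the mouse genome build mm9 (NCBIM37), and the rule used no peak value. Earlier results of these data were known when the genes were chosen. Of the 10 names, 9 matched the annotation directly, and Tfcp2l1 is annotated there under its older symbol Tcfcp2l1. The study mapped the PRC2 cofactor AEBP2 and the mark H3K27me3 by ChIP-seq, in which an antibody recovers the DNA bound by a protein or mark and regions with a pile-up of sequenced fragments are called as peaks. The series has 13 samples, of which 5 have a peak list. These are replicates 1 and 2 of endogenous AEBP2, recovered with an antibody raised in the study, replicates 1 and 2 of H3K27me3, whose antibody is labelled only as anti-H3K27, and a single sample of FS2-AEBP2. All 5 samples are labelled as a 129/1 XY male mESC line with a wild-type genotype, grown in serum with LIF. FS2-AEBP2 is AEBP2 with an N-terminal Flag-StrepII tag, and it was recovered by a different ChIP protocol. The methods describe its expression from a pCAG plasmid in E14 mESCs for mass spectrometry and name no line for its ChIP. The SUZ12, input and AEBP2 knockout samples were not analysed here.

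PRC2 methylates lysine 27 of histone H3, and the trimethylated form, H3K27me3, marks genes kept silent in mESCs, most of them developmental regulators with CpG-rich promoters. AEBP2 is a zinc-finger protein that binds the core of PRC2. The pluripotency network is a set of transcription factors and chromatin proteins that activate one another and hold mESCs in a self-renewing state. Many of its genes are shut down when the cells differentiate. RNA was not measured in the lists, so whether the 10 genes were active in these cells could not be checked from them.

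The lists held 2877 peaks for AEBP2 replicate 1, 6779 for AEBP2 replicate 2, 2884 for FS2-AEBP2, 14112 for H3K27me3 replicate 1 and 9275 for H3K27me3 replicate 2, on chromosomes 1 to 19, X and Y. The number of reads behind a list is unknown, and AEBP2 replicate 2 and H3K27me3 replicate 1 each held more peaks than the other replicate. Which H3K27me3 list is replicate 1 is uncertain, because the names in the lists seem to carry the opposite number to the sample records, which were followed. Each peak has a start, an end and a whole-number score whose scale is not stated, so a score is given with the percentage of peaks in its own list that score lower. A gene without a peak is a gene with no called region, which does not show that AEBP2 or H3K27me3 was absent. With 1 or 2 lists per target and no read counts, no test between samples was possible, and every count is a description.

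No endogenous AEBP2 peak lay within 1 kb of the start of any of the 10 genes. In AEBP2 replicate 1 this was 0 of 10 genes, beside 9.08% of all genes, in replicate 2 it was 0 of 10 beside 22.3%, and for a peak in both replicates it was 0 of 10 beside 8.44%. FS2-AEBP2 had a peak within 1 kb of the start at 2 of 10 genes, Klf4 and Prdm14, beside 6.53% of all genes. H3K27me3 replicate 1 had one at the same 2 genes, beside 17.0%, and replicate 2 at 1 gene, Prdm14, beside 17.7%. Prdm14 was therefore the 1 gene of 10 with H3K27me3 in both replicates, beside 15.0% of all genes. The other 8 genes, which include Pou5f1, Nanog and Sox2, had no peak of any list within 1 kb of the start, as did 68.5% of all genes. With 10 genes, none of these counts stands far enough from the share over all genes to be read as a property of the group.

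Over the whole gene, from its first to its last annotated base, Esrrb joined Klf4 and Prdm14. Endogenous AEBP2 had a peak in the gene body of 1 gene of 10, Esrrb, in replicate 1 (10.3% of all genes), in replicate 2 (24.9%) and in both (9.53%). FS2-AEBP2 had a peak in 3 gene bodies, those of Klf4, Esrrb and Prdm14, beside 7.69% of all genes. H3K27me3 replicate 1 covered part of the same 3 genes (20.8% of all genes), replicate 2 covered part of Esrrb and Prdm14 (20.2%), and both replicates did so at these 2 genes (17.3%).

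Distance to the nearest peak spread the genes out further. The median distance over the 10 genes was 1043 kb in AEBP2 replicate 1, 186 kb in AEBP2 replicate 2, 263 kb in FS2-AEBP2, 63.0 kb in H3K27me3 replicate 1 and 65.1 kb in H3K27me3 replicate 2. The medians over all genes were 235, 64.8, 321, 77.6 and 79.2 kb in the same order. The members' medians for endogenous AEBP2 were thus farther than those of all genes in both replicates, while those for FS2-AEBP2 and H3K27me3 were nearer. With FS2-AEBP2 peaks below the list's median score left out, the members' median for that list was 2789 kb. The median over all genes was not computed with those peaks left out, so 2789 kb cannot be set against 321 kb. None of these differences was tested, and single genes ranged from 10.8 to 2026 kb in AEBP2 replicate 2 and from 0 to 1510.1 kb in H3K27me3 replicate 2. Within 50 kb of the start, the members with a peak were Pou5f1 in AEBP2 replicate 1 (1 of 10, beside 21.6% of all genes) and Pou5f1 and Utf1 in AEBP2 replicate 2 (2 of 10, beside 45.5%). FS2-AEBP2 had a peak within 50 kb of 3 genes, Pou5f1, Klf4 and Prdm14 (16.0% of all genes), and each H3K27me3 replicate within 50 kb of 5 genes (41.1% and 40.4%). Nanog, Tfcp2l1, Zfp42 and Dppa4 had no peak of any list within 50 kb, which makes 4 of 10 beside 37.6% of all genes.

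**Figure D1:**
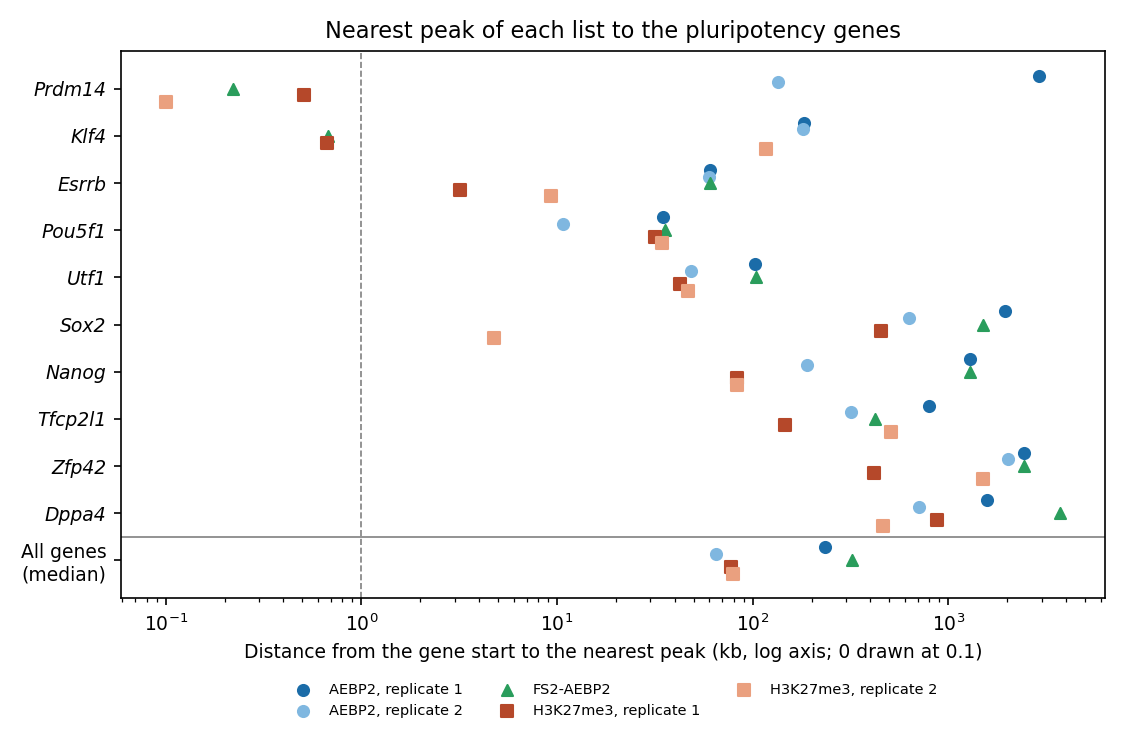
Distance from the start of each pluripotency gene to the nearest peak of each list, in kb on a log axis, with 1 point per gene and list, a dashed line at 1 kb and the median over all genes in the bottom row. Left of the line lie the Prdm14 points of FS2-AEBP2 and both H3K27me3 replicates and the Klf4 points of FS2-AEBP2 and H3K27me3 replicate 1 (a start inside a peak is drawn at 0.1 kb), and the endogenous AEBP2 points, in blue, lie at 10.8 kb or more for every gene.

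Pou5f1 (ENSMUSG00000024406, chr17:35642982-35647721, plus strand) encodes OCT4, the POU factor without which the pluripotent state collapses. It had no peak in its promoter or body, and its nearest peaks lay closer to the starts of other genes, H2-Q10 and Tcf19. A peak over the start of H2-Q10, a class Ib histocompatibility gene, was present in all 5 lists at -38.4 to -34.3 kb from the Pou5f1 start at its widest. Its score was 15 in AEBP2 replicate 1 (above 85.0% of the list), 15 in AEBP2 replicate 2 (79.1%), 8 in FS2-AEBP2 (42.5%), 17 in H3K27me3 replicate 1 (89.1%) and 33 in H3K27me3 replicate 2 (98.9%). AEBP2 replicate 2 had a further peak of 442 bp over the start of Tcf19, 10.8 kb downstream of the Pou5f1 start, with a score of 17 (82.5%). H3K27me3 replicate 1 had a further peak of 1474 bp at -33.2 to -31.7 kb, with a score of 4 (23.0%).

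Sox2 (ENSMUSG00000074637, chr3:34548927-34551383, plus strand), which encodes the HMG-box partner of OCT4, differed between the H3K27me3 replicates. Replicate 2 had 3 peaks within 50 kb, at -10.1 to -7.70 kb (score 12, above 71.6% of the list), -6.69 to -4.78 kb (score 4, above 16.4%) and 12.7 to 14.3 kb (score 11, above 68.1%) from the start. The nearest peak of replicate 1 lay 452 kb away. The nearest AEBP2 peaks lay 1941 kb away in replicate 1 and 630.1 kb in replicate 2, at the starts of Actl6a and Fxr1, and the nearest FS2-AEBP2 peak lay 1507 kb away. The Sox2 promoter was nonetheless CpG-rich, with 159 CpG sites within 1 kb of the start, more than 95.7% of all promoters.

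Nanog (ENSMUSG00000012396, chr6:122657507-122664651, plus strand) encodes the homeodomain factor that stabilises self-renewal. Its nearest H3K27me3 peaks lay 83.6 kb upstream in replicate 1 and 83.4 kb upstream in replicate 2, and they ended 2.56 and 2.29 kb from the start of Dppa3, another gene of the early embryo in the same cluster. The nearest AEBP2 peaks were 1293 kb away in replicate 1 and 189 kb in replicate 2, and the nearest FS2-AEBP2 peak was 1293 kb away. AEBP2 replicate 1 and FS2-AEBP2 shared that peak, 59.3 and 59.2 kb from the start of Iqsec3.

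The 250 bases before each of these 3 starts, with those of Zfp42, are printed to show how far CpG content differed among promoters that all lacked a peak. CpG sites are in capitals, and each sequence reads 5′ to 3′ on the strand of its gene.
Pou5f1 upstream, chr17:35642732-35642981, plus strand: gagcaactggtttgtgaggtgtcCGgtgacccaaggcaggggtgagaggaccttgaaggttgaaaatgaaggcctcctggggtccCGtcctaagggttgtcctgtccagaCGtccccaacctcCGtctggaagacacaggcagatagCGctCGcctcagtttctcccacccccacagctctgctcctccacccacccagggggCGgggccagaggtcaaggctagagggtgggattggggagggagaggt
Nanog upstream, chr6:122657257-122657506, plus strand: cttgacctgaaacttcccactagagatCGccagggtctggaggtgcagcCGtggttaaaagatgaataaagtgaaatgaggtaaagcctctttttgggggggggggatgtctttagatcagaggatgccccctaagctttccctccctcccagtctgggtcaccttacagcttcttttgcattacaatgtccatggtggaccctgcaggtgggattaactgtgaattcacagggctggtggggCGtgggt
Sox2 upstream, chr3:34548677-34548926, plus strand: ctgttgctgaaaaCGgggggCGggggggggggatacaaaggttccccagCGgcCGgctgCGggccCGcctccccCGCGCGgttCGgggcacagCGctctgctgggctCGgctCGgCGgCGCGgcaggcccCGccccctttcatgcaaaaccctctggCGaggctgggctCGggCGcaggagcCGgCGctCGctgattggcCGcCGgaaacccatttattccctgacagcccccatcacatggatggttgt
Zfp42 upstream, chr8:44392364-44392613, minus strand: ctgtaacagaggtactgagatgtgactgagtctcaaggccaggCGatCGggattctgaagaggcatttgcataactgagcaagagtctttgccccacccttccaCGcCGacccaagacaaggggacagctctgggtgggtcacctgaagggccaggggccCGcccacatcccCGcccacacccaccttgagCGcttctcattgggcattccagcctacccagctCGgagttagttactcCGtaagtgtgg
These stretches hold 7 CpG sites for Pou5f1, 3 for Nanog, 25 for Sox2 and 9 for Zfp42. None overlaps an annotated exon.

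Zfp42 (ENSMUSG00000051176, chr8:44380422-44392363, minus strand) encodes REX1, a zinc-finger protein used as a marker of undifferentiated mESCs. It lay far from peaks of every list. The distances were 2443 kb to AEBP2 replicate 1, 2026 kb to AEBP2 replicate 2, 2443 kb to FS2-AEBP2, 416 kb to H3K27me3 replicate 1 and 1510.1 kb to H3K27me3 replicate 2. The shares of all genes that lay nearer to a peak were 95.2%, 98.5%, 95.5%, 85.8% and 98.1% in the same order.

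Dppa4 (ENSMUSG00000058550, chr16:48283848-48294405, plus strand), whose SAP-domain product is found in the nuclei of pluripotent cells, was similarly remote. Its nearest peaks lay 1572 kb away in AEBP2 replicate 1, 709.9 kb in AEBP2 replicate 2, 3725 kb in FS2-AEBP2, 876 kb in H3K27me3 replicate 1 and 466 kb in H3K27me3 replicate 2. Between 88.9% and 97.9% of all genes lay nearer to a peak, depending on the list. Its promoter had 27 CpG sites within 1 kb of the start, the fewest of the 10 genes.

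Tfcp2l1 (ENSMUSG00000026380, chr1:120524522-120581744, plus strand) encodes a CP2-family factor that maintains naive pluripotency downstream of LIF. The nearest peaks were 793 kb away in AEBP2 replicate 1, over the start of Inhbb, 317 kb in AEBP2 replicate 2, over the start of Tsn, and 423 kb in FS2-AEBP2, beside the start of the Hedgehog-pathway factor Gli2. H3K27me3 replicate 1 had its nearest peak 147 kb downstream and replicate 2 its nearest 509 kb downstream. No list therefore had a peak near Tfcp2l1, and the replicates of each target did not share their nearest peak.

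Utf1 (ENSMUSG00000047751, chr7:147129688-147131011, plus strand), which encodes a chromatin-bound factor of undifferentiated cells, had its nearest peaks at 2 other genes, Kndc1 and Msx3. The Kndc1 start was covered by H3K27me3 peaks of 10563 bp in replicate 1 (score 16, above 88.0% of the list) and 3815 bp in replicate 2 (score 10, above 64.2%), which ended 42.4 and 46.8 kb upstream of Utf1. AEBP2 replicate 2 had a peak of 456 bp there, 48.5 kb upstream, with a score of 5, above 25.2% of its list. AEBP2 replicate 1 and FS2-AEBP2 had their nearest peaks over the start of the homeobox gene Msx3, 103 and 104 kb downstream.

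Prdm14 (ENSMUSG00000042414, chr1:13103538-13117244, minus strand) encodes a PR-domain zinc-finger protein that represses differentiation signals and is needed for germ cells. It was the 1 gene of the 10 with H3K27me3 at its start in both replicates. In replicate 2 a peak of 3958 bp ran from -0.374 to 3.58 kb and covered the start (score 9, above 59.8% of the list), with a smaller peak of 309 bp at -1.89 to -1.58 kb (score 10, above 64.2%). In replicate 1 a peak of 3002 bp began 0.508 kb inside the gene and ran to 3.51 kb (score 12, above 81.6%). This overlap with the 1 kb window was partial, and with windows of 500 bp, or with at least 50% of the peak required inside the window, no gene of the 10 had H3K27me3 in both replicates. FS2-AEBP2 had a peak of 373 bp at -0.594 to -0.222 kb (score 8, above 42.5%) and a peak of 1671 bp at 0.508 to 2.18 kb (score 6, above 26.7%). The second ended at the same base on the start side, 13116736, as the H3K27me3 peak of replicate 1. No endogenous AEBP2 peak lay nearer than 2894 kb in replicate 1 and 134 kb in replicate 2.

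The stronger block that the peak caller marked inside the upstream FS2-AEBP2 peak of Prdm14 is shown because it is the called region nearest to that start outside H3K27me3 replicate 2, with CpG sites in capitals.
Prdm14 upstream FS2-AEBP2 block, chr1:13117495-13117676, minus strand: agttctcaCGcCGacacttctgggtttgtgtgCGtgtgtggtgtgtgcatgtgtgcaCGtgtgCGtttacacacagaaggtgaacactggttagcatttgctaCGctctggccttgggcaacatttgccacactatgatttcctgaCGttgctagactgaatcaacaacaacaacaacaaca
It is 182 bases long with 7 CpG sites and lies upstream of the annotated transcript.

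Klf4 (ENSMUSG00000003032, chr4:55540013-55545347, minus strand) encodes a zinc-finger factor that is among those used to reprogramme somatic cells. It had 1 peak in FS2-AEBP2 and 1 in H3K27me3 replicate 1, over nearly the same bases. The FS2-AEBP2 peak was 675 bp long, at 0.672 to 1.35 kb inside the gene, with a score of 6 (above 26.7% of the list). The H3K27me3 replicate 1 peak was 602 bp long, at 0.669 to 1.27 kb, with a score of 7 (above 60.8%). They shared 599 bp that hold 49 CpG sites, an exon of 141 bp and the start of the transcript Klf4-003, 705 bp from the gene start. H3K27me3 replicate 2 had its nearest peak 117 kb upstream, so the H3K27me3 peak was not found in both replicates. The nearest endogenous AEBP2 peaks lay 182 kb downstream in both replicates, over the start of Rad23b. Part of the intron under both Klf4 peaks, the stronger block of the H3K27me3 peak, reads as follows, with CpG sites in capitals.
Klf4 intron block, chr4:55544097-55544324, minus strand: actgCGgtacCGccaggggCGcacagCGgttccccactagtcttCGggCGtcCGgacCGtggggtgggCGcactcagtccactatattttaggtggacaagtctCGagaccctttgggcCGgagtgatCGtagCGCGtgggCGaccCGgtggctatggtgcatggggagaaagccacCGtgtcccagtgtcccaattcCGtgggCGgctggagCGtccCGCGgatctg
It holds 22 CpG sites in 228 bases.

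**Figure D2:**
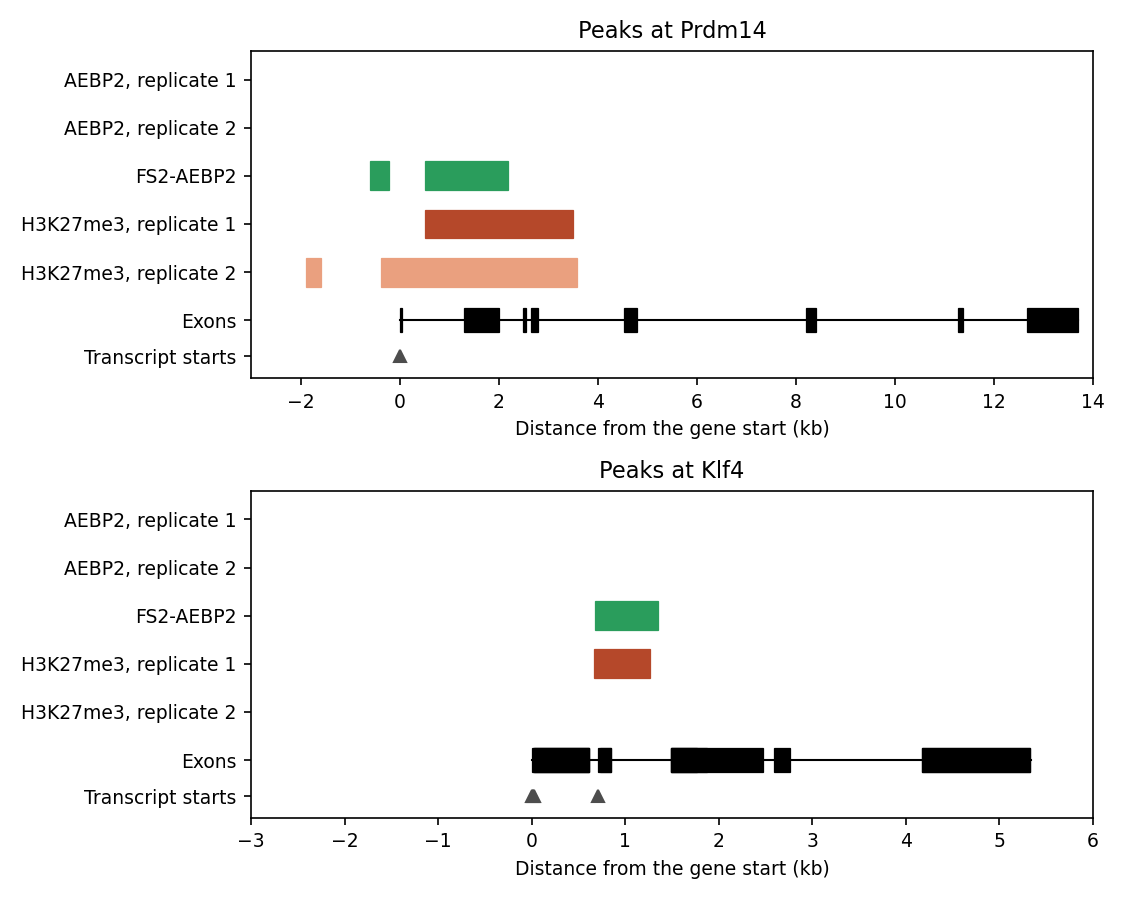
Peaks of each list at Prdm14 (top) and Klf4 (bottom), drawn as bars at their distance in kb from the gene start in the direction of transcription, with exons as black boxes and annotated transcript starts as triangles. FS2-AEBP2 and H3K27me3 bars lie between -1.89 and 3.58 kb from the Prdm14 start and between 0.669 and 1.35 kb from the Klf4 start. The rows of both endogenous AEBP2 replicates are empty, and so is the row of H3K27me3 replicate 2 at Klf4.

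FS2-AEBP2 without endogenous AEBP2, as at Prdm14 and Klf4, was uncommon over all genes. After these values had been seen, promoters with an FS2-AEBP2 peak and no peak of either AEBP2 replicate within 1 kb were counted, and they numbered 95 of the 1460 promoters with an FS2-AEBP2 peak, or 0.425% of all promoters. Any FS2-AEBP2 peak lay within 1 kb at 6.53% of all promoters, which bounds that share. The count was not matched for score. The FS2-AEBP2 scores of 6 and 8 at the 2 genes were below the list's median of 9. With peaks under that median left out, FS2-AEBP2 had a promoter peak at 0 of 10 genes. FS2-AEBP2 has no replicate, and the tag, the expression of the tagged protein and the protocol cannot be told apart.

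Esrrb (ENSMUSG00000021255, chr12:87702067-87862578, plus strand) encodes an orphan nuclear receptor that can sustain self-renewal in place of NANOG. It was the gene of the 10 with a peak of all 5 lists, and those peaks lay inside the gene at a second set of transcript starts. The share of all genes with all 5 lists in the body was not computed. It cannot exceed the share with FS2-AEBP2, 7.69% of all genes and 18.2% of genes of 100 kb or more. Of the 7 annotated transcripts of Esrrb, Esrrb-001 starts at 87702067 and had no peak of any list within 1 kb. Esrrb-002, Esrrb-003 and Esrrb-201 start at 87762594, 60.5 kb farther in, and Esrrb-006 at 87762833. AEBP2 replicate 1 had a peak there at chr12:87762562-87764824 with a score of 19, above 90.9% of its list, and AEBP2 replicate 2 one at chr12:87761980-87764282 with a score of 22, above 88.4%. The FS2-AEBP2 peak was chr12:87762720-87764298, with a score of 16, above 71.9%. The H3K27me3 peaks were broader, 9862 bp in replicate 1 with a score of 40, above 99.5% of the list, and 8063 bp in replicate 2 with a score of 18, above 86.5%.

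The 5 peaks shared chr12:87762720-87764282, a stretch of 1563 bp with 103 CpG sites, 0.79 times the number predicted from its C and G content. The remaining 2 starts of the gene, of Esrrb-005 and Esrrb-004, 109 and 143 kb from the first, had no peak of any list within 1 kb. Between the first start and the peaks over the internal starts, only H3K27me3 peaks were called. Replicate 1 had 6 peaks in the gene body that covered 29571 bp and replicate 2 had 3 that covered 13091 bp, and both had peaks between 37.4 and 44.1 kb. Esrrb is 160512 bp long, and of the 2401 genes of 100 kb or more 19.7% had an AEBP2 peak of both replicates and 42.4% an H3K27me3 peak of both replicates in the body. Which of the Esrrb transcripts these cells made was not measured here.

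The 250 bases before the first start and 300 bases of the intron just after the internal starts are shown to contrast the start without peaks with a block marked as strong in every list. The intron stretch lies in 1 of 2 such blocks, and the other, chr12:87762721-87763033, has 194 of its 313 bp in exons and is not printed. CpG sites are in capitals.
Esrrb upstream, chr12:87701817-87702066, plus strand: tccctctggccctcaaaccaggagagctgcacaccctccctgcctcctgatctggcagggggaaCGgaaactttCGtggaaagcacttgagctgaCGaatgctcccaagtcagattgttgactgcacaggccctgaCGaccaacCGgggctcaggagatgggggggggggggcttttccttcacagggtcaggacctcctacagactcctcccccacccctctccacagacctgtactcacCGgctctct
Esrrb internal, chr12:87763455-87763754, plus strand: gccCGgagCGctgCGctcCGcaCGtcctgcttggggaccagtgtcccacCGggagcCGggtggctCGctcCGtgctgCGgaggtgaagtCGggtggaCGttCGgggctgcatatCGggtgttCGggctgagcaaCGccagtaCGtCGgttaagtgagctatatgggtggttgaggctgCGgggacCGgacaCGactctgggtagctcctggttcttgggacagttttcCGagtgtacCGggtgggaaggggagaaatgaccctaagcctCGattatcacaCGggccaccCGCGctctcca
The upstream stretch holds 6 CpG sites and the internal stretch 27. Around the first start, 42 CpG sites lie within 1 kb on either side, and around the internal start at 87762594 there are 100.

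**Figure D3:**
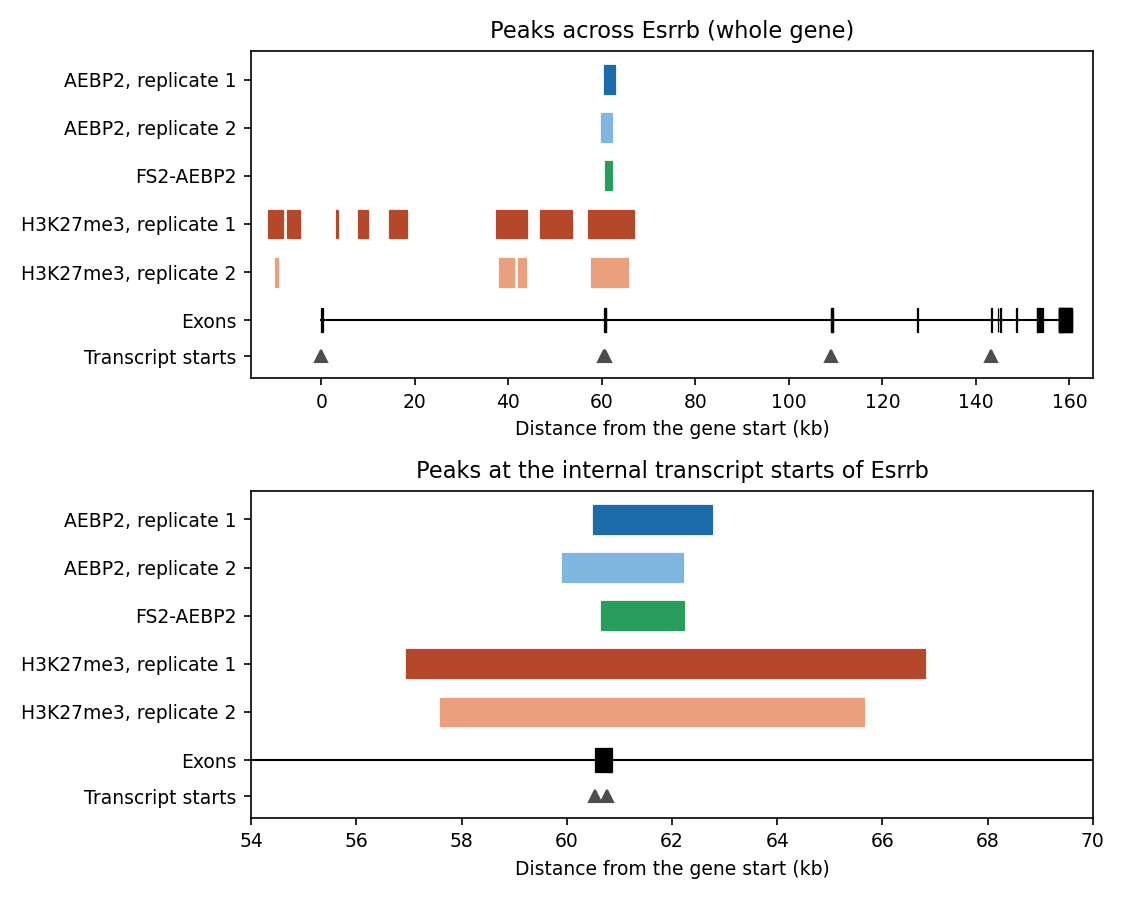
Peaks of each list over the whole of Esrrb (top) and around its internal transcript starts (bottom), drawn as bars at their distance in kb from the gene start, with exons as black boxes and transcript starts as triangles. All 5 lists have a bar at the internal starts near 60.5 kb, and none has a bar at the first start.

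When a peak within 1 kb of any annotated transcript start was counted in place of the gene start, Esrrb entered the counts. Endogenous AEBP2 of both replicates was then found at 1 of 10 genes, Esrrb, beside 9.24% of all genes, and H3K27me3 of both replicates at 2, Esrrb and Prdm14, beside 16.2%. FS2-AEBP2 was found at 3, Klf4, Esrrb and Prdm14, beside 7.15%. The 10 genes have 30 distinct transcript starts, of which 2 had a peak within 1 kb in AEBP2 replicate 1, 2 in AEBP2 replicate 2, 7 in FS2-AEBP2, 7 in H3K27me3 replicate 1 and 3 in H3K27me3 replicate 2. The 2 starts with endogenous AEBP2 were the internal starts of Esrrb. Starts that lie close together can count the same peak more than once. The 4 Klf4 starts did so in FS2-AEBP2 and in H3K27me3 replicate 1, as did the 2 internal Esrrb starts. No share over all transcript starts was computed, so these counts of starts cannot be set against the other genes.

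CpG content was compared because PRC2 is known for binding at CpG islands. A region was called CpG-island-like where a window of 500 bp reached 55% GC and had 0.65 times the number of CpG sites predicted from its C and G content, or more. Such a region lay within 1 kb of the start of 5 of 10 genes, Sox2, Klf4, Tfcp2l1, Prdm14 and Utf1, and of 12312 of all 22367 genes. The genes with a promoter peak, Klf4 and Prdm14, were among these 5. The region around the internal starts of Esrrb near 60.5 kb was also CpG-island-like, while that around its first start was not. The start of Esrrb-005, 109 kb from the first, had a CpG-island-like region too but no peak of any list within 1 kb. Sox2, Tfcp2l1 and Utf1 had such a region and no peak within 1 kb. Klf4 had the most CpG sites of the 10, with 179 within 1 kb of the start, followed by Sox2 with 159, Utf1 with 116, Prdm14 with 80, Tfcp2l1 with 66, Zfp42 with 50, Pou5f1 with 44, Esrrb with 42, Nanog with 34 and Dppa4 with 27. The median over all promoters was 61.0. Over all genes with such a region, 14.9% had AEBP2 of both replicates, 11.4% FS2-AEBP2 and 23.4% H3K27me3 of both replicates within 1 kb. Over the 10055 genes without one these shares were 0.497%, 0.567% and 4.65%. The share of promoters with a peak was therefore lower without such a region in each of these 3 counts.

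**Figure D4:**
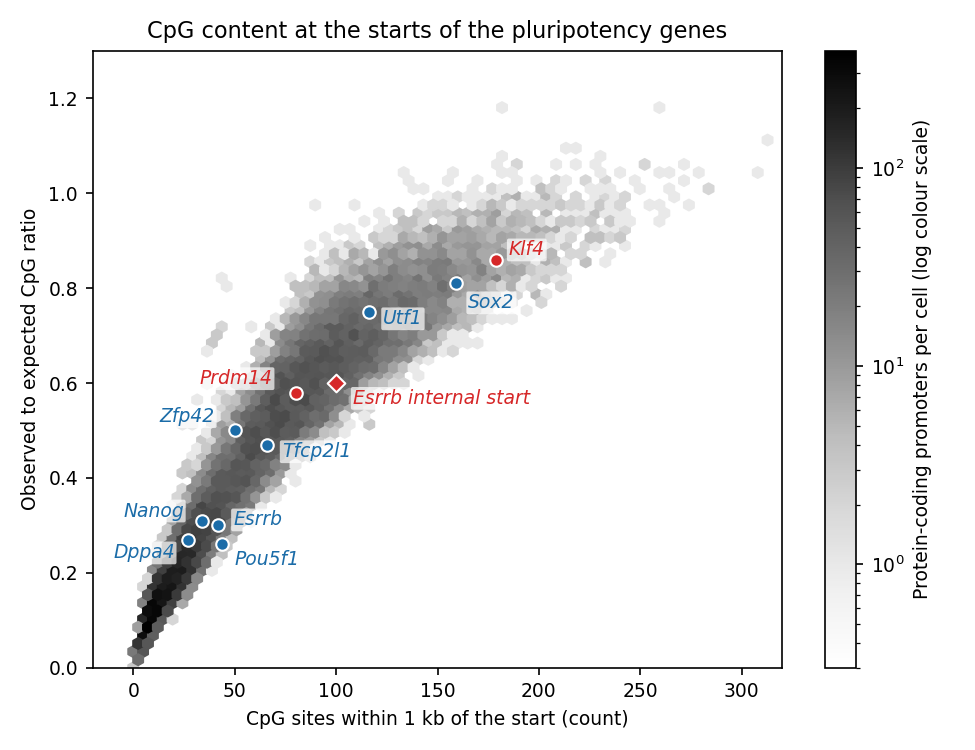
CpG sites within 1 kb of the start (horizontal axis, count) against the observed to expected CpG ratio (vertical axis), with all protein-coding promoters as grey cells, darker for more promoters on a log colour scale. Red points had a promoter peak (Klf4, Prdm14), blue points did not, and the red diamond is the internal start of Esrrb, which has 100 CpG sites against 42 at the first start.

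A wider list of 30 further pluripotency genes was examined in the same way. Of these, 24 had no peak of any list within 1 kb of the start, beside 68.5% of all genes. AEBP2 replicate 1 had a promoter peak at 1 gene, Tbx3 (9.08% of all genes), and AEBP2 replicate 2 at 5, Tbx3, Sall1, Tet2, Lifr and Gbx2 (22.3%). FS2-AEBP2 had one at 3, Klf2, Tbx3 and Gbx2 (6.53%), and each H3K27me3 replicate at 2, Tbx3 and Gbx2 (17.0% and 17.7%). Tbx3, a T-box factor of the naive network that is also used in limb and heart development, was the 1 gene of the 30 with a promoter peak of all 5 lists. The share of all genes with all 5 was not computed, and it cannot exceed the 6.53% with FS2-AEBP2. Gbx2, a homeobox gene of the naive network and of the hindbrain, lacked only AEBP2 replicate 1, whose nearest peak was 7.82 kb away. Sall1, Tet2 and Lifr, which encode a zinc-finger repressor, an oxidase of methylated cytosine and the LIF receptor, had a peak of AEBP2 replicate 2 only. Klf2, a relative of Klf4, had FS2-AEBP2 peaks of 419 bp (score 11, above 57.5% of the list) and 251 bp (score 3, above 4.13%) at 0.0340 to 0.452 kb and 1.03 to 1.28 kb inside the gene and no peak of another list within 50 kb.

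For scale, 2 lists of developmental genes were counted beside these, against the same shares of all genes. Of 10 genes of formative and primed pluripotency, 9 had a promoter peak in AEBP2 replicate 1 (9.08% of all genes). AEBP2 replicate 2 had one at 10 (22.3%), FS2-AEBP2 at 8 (6.53%) and each H3K27me3 replicate at 10 (17.0% and 17.7%). Fgf5 and Otx2, which rise as mESCs leave the naive state, had a peak of all 5 lists, and Dnmt3b, a DNA methyltransferase, lacked AEBP2 replicate 1 and FS2-AEBP2. Of 10 lineage regulators, 9 had a promoter peak in AEBP2 replicate 1, 10 in AEBP2 replicate 2, 9 in FS2-AEBP2 and 10 in each H3K27me3 replicate. Sox17 and Foxa2, endoderm factors, had a peak of all 5 lists, and Gata4 lacked AEBP2 replicate 1 and FS2-AEBP2. Their promoters were also richer in CpG, with a CpG-island-like region at 10 and 8 of 10 genes beside 5 of 10 for the pluripotency genes. These lists hold known Polycomb targets and, like the members, were chosen with earlier results of these data known. Their counts are therefore a description, and no difference from the pluripotency genes was tested. The share of all genes with a promoter peak of all 5 lists was not computed.

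**Figure D5:**
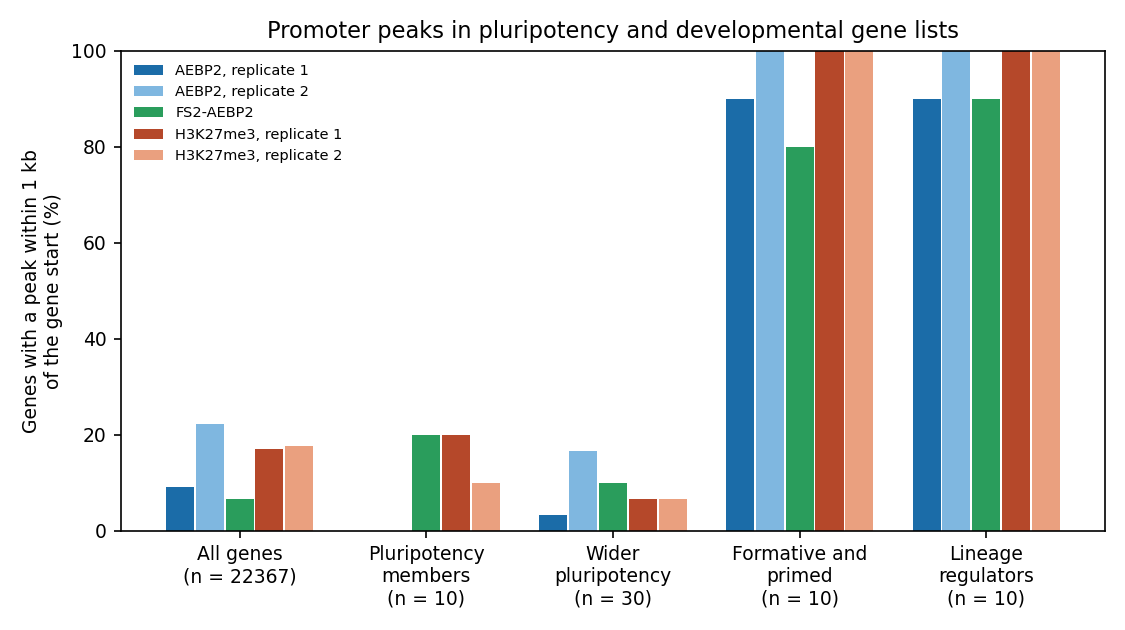
Percentage of genes with a peak within 1 kb of the start (vertical axis) in each of the 5 lists (bars), for all protein-coding genes, the 10 pluripotency genes, the wider list of 30, and the 10 formative and primed and 10 lineage genes. Bars for the pluripotency genes stand for 0 to 2 genes of 10, and those for the formative and lineage genes for 8 to 10 of 10.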

How the data were processed

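Peaks were analysed from 5 ChIP-seq samples of wild-type mESCs, grouped by the sample labels. The deposited lists give for each peak its start, its end, stronger blocks inside it and a whole-number score, which the authors made per sample without pooling replicates. The submitters' processing notes name Bowtie, SAMtools, Picard and MACS2 2.0.10.2 and the build mm9. Thresholds, the control library and the scale of the score are not given in the sources used here. Because read counts are not in the lists, the depth of each sample is unknown, and a list with more peaks may only be sequenced more deeply.

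Peaks on the autosomes (1 to 19) and on X and Y were overlapped (at least 1 bp) with 1 kb on either side of each gene start and with the gene body, for all 22367 protein-coding genes of GENCODE vM1. Sequence and CpG content were read from the mm9 genome, and CpG-island-like windows of 500 bp were taken every 10 bp. The overlap code was tested on simulated peaks. Python 3.11.15, numpy 2.4.6, pysam 0.24.0 and matplotlib 3.10.9 were used.

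All 10 members are named. From the wider list of 30 genes those with a promoter peak in any list are named, and at most 4 genes from each of the other lists. The members and lists were chosen with earlier results of these data known. Alternatives were an overlap of 50% of the peak, scores at or above the list median, peaks within 1 kb joined, each replicate left out, either replicate, peaks of the same replicate number, promoters of 500 bp and 2.5 kb, any transcript start, and promoters with a CpG-island-like region.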

Additional observations from a re-analysis of the deposited data

How the results depend on the processing

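AEBP2 of both replicates, at 0 of 10 promoters as reported, was found at 1 with any transcript start and at 0 with a promoter of 2.5 kb, either replicate, a replicate left out or peaks joined. Stricter settings could only return 0 and say nothing of stability. H3K27me3 of both replicates, at 1 promoter as reported, was found at 0 with 50% of the peak or a promoter of 500 bp, at 2 with either replicate or any transcript start, and at 1 to 2 with a replicate left out. FS2-AEBP2, at 2 promoters, was found at 1 with 50% of the peak or a promoter of 500 bp and at 0 with scores at or above the median, which also lowered its gene bodies from 3 to 1. Over all promoters, scores at or above the median lowered the shares to 4.73% for AEBP2, 11.6% for H3K27me3 and 3.94% for FS2-AEBP2. Promoters with a CpG-island-like region raised them to 14.9% for AEBP2, 23.4% for H3K27me3 and 11.4% for FS2-AEBP2. The median distance of the members, taken to a peak of either replicate, was 186 kb for AEBP2 (186 to 1043 kb with a replicate left out) and 37.1 kb for H3K27me3 (63.0 to 65.1 kb), and that of FS2-AEBP2 rose from 263 to 2789 kb with scores at or above the median. AEBP2 with H3K27me3 of the same replicate number could only give 0, since neither AEBP2 replicate had a promoter peak. The causes of these changes were not tested. No paired analysis was possible because the counts come from no test. Unknown depth, 1 or 2 lists per target and unstated thresholds limit every absence of a peak.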
